A study of Mus musculus with 4 samples.

Results

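The granins and the enzymes that cut peptide precursors were followed in the prelimbic cortex of adult male mice after exposure to fluoxetine before birth. The members were 10 genes, taken by symbol: the granins Chga, Chgb, Scg2, Scg3 and Vgf, the small helper proteins Scg5 and Pcsk1n, the convertases Pcsk1 and Pcsk2, and the carboxypeptidase Cpe. Every probe set annotated to such a symbol and to no other was kept and read separately, which gave 10 probe sets for 9 of the 10 genes, among 34945 probe sets for 18193 genes in all. Cpe had 2 probe sets, 8 genes had 1 each, and Pcsk2 had 0 that were named for it alone, so that Pcsk2 was not analysed here.

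The study compared 2 arrays of mice that received fluoxetine in utero, an antidepressant that blocks serotonin reuptake, with 2 arrays of untreated mice. All mice were male and were taken on postnatal day 90, and total RNA of punched medial prefrontal tissue was labelled with biotin and hybridised to Affymetrix 3' expression arrays. The labels name the animals' tissue, sex, age and treatment and no strain, transgene or other agent shared by the groups. The 2 arrays of each group are described as biological duplicates. Pooling of mice and litter membership are not given in the sources used here, so that p-values are tied to these 4 arrays. Each sets a difference against a variance estimated from these arrays, in part from other probe sets of like level.

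Granins are acidic proteins that are packed with neuropeptide precursors into dense-core vesicles, where they help to condense the cargo and are themselves cut into peptides. The convertases cleave precursors after pairs of basic residues, the carboxypeptidase trims these residues off, and the peptides leave the cell when calcium triggers fusion of the vesicle. In cortex this machinery serves neuropeptides and neurotrophins of interneurons and pyramidal cells, and Vgf, Scg2 and Pcsk1 are known from cultured neurons as genes whose transcription can follow activity and cyclic AMP.

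The RefSeq promoter table of build GRCm38.p6 held 8 of the 10 genes, with 250 bases before and 50 bases after the start of each gene. Vgf and Cpe had no entry in it, so that their promoters were not searched. The cyclic AMP response element TGACGTCA, searched on both strands, lay in 3 of these 8 promoters, those of Pcsk1, Scg2 and Chgb, against 1.79% of the 32851 promoters in the table. Its first base stood 78 bases before the start in Pcsk1, 68 in Scg2 and 72 in Chgb. The shorter form TGACG, which also lies inside the full element on each strand, was found in 7 of the 8, against 20.8% of all promoters, and the promoter of Chga held it 44 bases before the start without the full element. The promoters of Pcsk1, Scg2 and Chgb are shown for the full element and that of Chga as an example of the short form alone. Those of Scg3, Scg5 and Pcsk2 also held the short form alone and are not shown. The readings of the genes shown are described further on. Capitals mark TGACGTCA and TGACG on either strand, and a match is a run of letters and not a binding site.
Pcsk1 promoter, chr13:75089607-75089906, plus strand: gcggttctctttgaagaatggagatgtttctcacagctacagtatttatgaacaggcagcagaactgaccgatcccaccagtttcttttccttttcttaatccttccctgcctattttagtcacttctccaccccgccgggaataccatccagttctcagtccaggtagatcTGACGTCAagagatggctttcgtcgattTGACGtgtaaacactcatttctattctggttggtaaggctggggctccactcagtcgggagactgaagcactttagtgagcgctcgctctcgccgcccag
Scg2 promoter, chr1:79439977-79440276, minus strand: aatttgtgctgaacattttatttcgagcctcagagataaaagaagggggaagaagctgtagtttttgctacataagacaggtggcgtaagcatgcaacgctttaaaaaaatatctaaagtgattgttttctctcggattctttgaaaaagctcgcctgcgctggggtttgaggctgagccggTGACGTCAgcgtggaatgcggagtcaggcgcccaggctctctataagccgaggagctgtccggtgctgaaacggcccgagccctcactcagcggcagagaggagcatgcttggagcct
Chgb promoter, chr2:132781392-132781691, plus strand: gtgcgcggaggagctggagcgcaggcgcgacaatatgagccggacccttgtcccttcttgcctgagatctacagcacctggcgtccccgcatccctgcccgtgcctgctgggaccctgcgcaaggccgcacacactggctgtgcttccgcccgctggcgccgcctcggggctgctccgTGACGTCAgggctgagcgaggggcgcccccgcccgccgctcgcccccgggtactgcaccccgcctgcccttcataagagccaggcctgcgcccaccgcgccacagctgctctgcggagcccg
Chga promoter, chr12:102554691-102554990, plus strand: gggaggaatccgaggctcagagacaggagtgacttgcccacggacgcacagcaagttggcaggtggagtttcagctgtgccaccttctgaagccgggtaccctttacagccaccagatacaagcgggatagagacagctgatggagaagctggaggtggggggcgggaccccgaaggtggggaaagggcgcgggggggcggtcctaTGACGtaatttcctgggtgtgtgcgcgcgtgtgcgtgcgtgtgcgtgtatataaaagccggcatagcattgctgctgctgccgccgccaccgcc

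Values are log2 intensities as the authors deposited them, and a difference is the fluoxetine mean minus the untreated mean. Cortical neuron markers were read on every array: the 8 markers of neurons averaged 13.22 and 13.20 in fluoxetine mice, against 13.16 and 13.20 in untreated mice, and none of the 4 measured markers of excitatory neurons lay below the median of all probe sets. Untreated replicate 2 stood apart in striatal markers and fluoxetine replicate 1 in Ttr. The 10 measured markers of striatal medium spiny neurons averaged 8.50 and 8.86 in fluoxetine mice, against 8.67 in untreated replicate 1 and 9.77 in untreated replicate 2, and all 10 had a negative difference. Markers of the oligodendrocyte list averaged 11.65 and 11.66 in fluoxetine mice, against 11.67 in untreated replicate 1 and 11.91 in untreated replicate 2. The 4 markers of the choroid plexus averaged 7.29 and 6.25 in fluoxetine mice, against 5.89 and 6.42 in untreated mice, and 1 gene made this gap: Ttr, the transthyretin gene, read 11.71 and 8.09 in fluoxetine mice, against 6.67 and 8.97 in untreated mice. The other 3 averaged 5.82 and 5.64 in fluoxetine mice, against 5.63 and 5.57 in untreated mice. The poly-A control transcripts, added before labelling, were higher with fluoxetine in 24 of 24 probe sets, by a median of 0.24. Their medians per array were 7.94 and 8.16 in fluoxetine mice, against 7.53 in untreated replicate 1 and 8.02 in untreated replicate 2, so that the array medians overlapped between groups and untreated replicate 1 lay lowest. Over all tested probe sets 3301 had an unadjusted p below 0.05 in the limma fit, 2237 of them higher and 1064 lower with fluoxetine, and 1 passed after Benjamini-Hochberg adjustment, a probe set of the synaptic scaffold gene Homer1 (log2 difference 1.08, SE 0.06, n = 2 and 2, adjusted p = 0.0116). An exact two-sided permutation test of 2 arrays against 2 cannot give a p below 0.333.

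**Figure D1:**
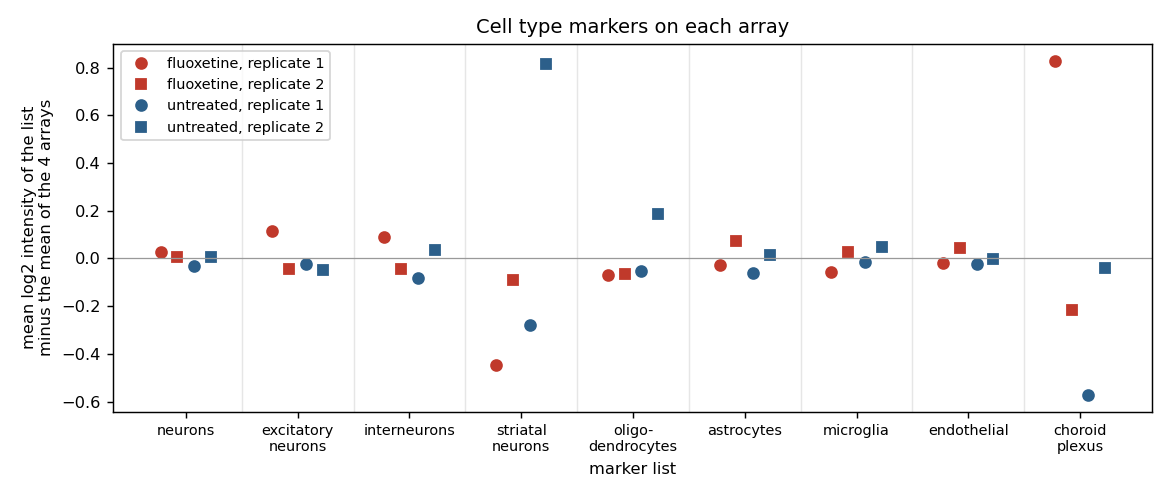
Mean log2 intensity of 9 cell type marker lists on each array, as the deviation from the mean of the 4 arrays (y axis), with each gene read by its probe set of highest mean; red symbols are fluoxetine arrays, blue symbols untreated arrays. Fluoxetine replicate 1 lies highest for choroid plexus (7.29, through Ttr) and untreated replicate 2 for striatal neurons (9.77), while the neuron list spans 13.16 to 13.22.

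The question put to these genes was whether prenatal fluoxetine left adult prelimbic cortex with another level of granins or of the enzymes that process peptides. None of the 10 probe sets passed the correction over all 34945 probe sets, where the lowest adjusted p of a member was 0.429, against 0.00286% of all probe sets past it. At an unadjusted p below 0.05, 1 of the 10 was higher with fluoxetine (Pcsk1) and 0 were lower, against 6.4% higher and 3.04% lower of all tested probe sets, so that the share of members called, 10%, lay near the 9.45% of the background. Both fluoxetine arrays read above both untreated arrays in 4 probe sets (Scg3, Scg5, Pcsk1 and one of Cpe) and the opposite arrangement occurred in 0, against 19.9% and 20% of all probe sets, 39.9% together. Probe sets above the median level, where 9 of the 10 lay, leaned upward as a whole: 27.5% had the first arrangement and fewer, 2615 of 17472, the second. The median difference of the members was 0.03, against −0.0065 over all tested probe sets and 0.016 over those above the median level. The members' median depended on the arrays and the scaling. It was −0.0031 without untreated replicate 1, 0.05 without untreated replicate 2, 0.0068 with the arrays quantile-normalized again and 0.07 with array medians subtracted. The median over all tested probe sets moved too, to −0.016, 0.0097, −0.010 and 0.03 in the same order of settings. In bulk tissue, fewer cells of a type and less RNA per cell cannot be told apart.

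**Figure D2:**
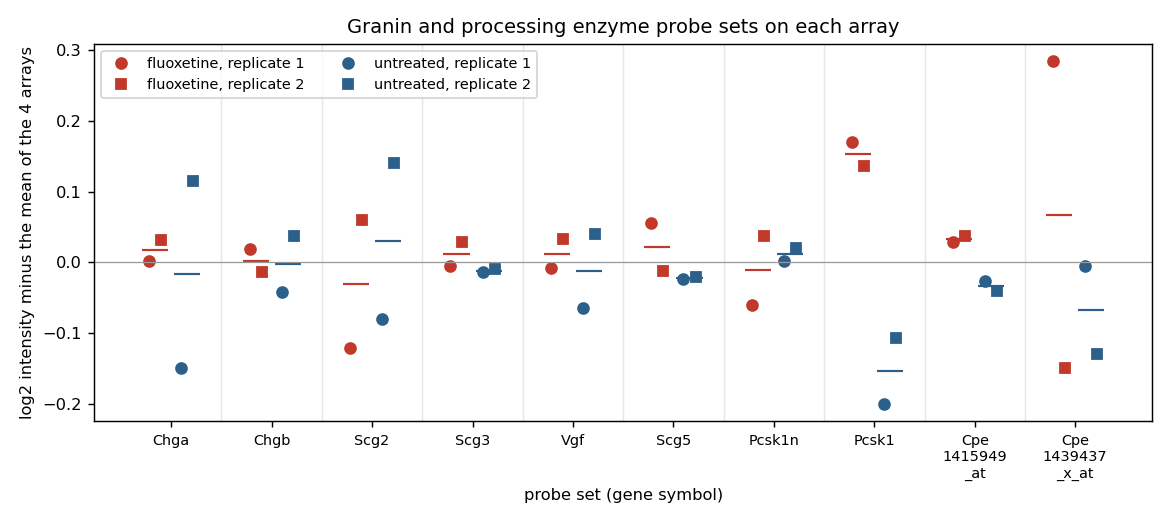
Log2 intensity of each member probe set on each array, as the deviation from that probe set's mean over the 4 arrays (y axis); red symbols are fluoxetine arrays, blue symbols untreated arrays, and short lines the group means. The groups lie apart by 0.24 for Pcsk1 and by at most 0.05 elsewhere. For Chga, Chgb and Vgf, untreated replicate 1 lies below and untreated replicate 2 above both fluoxetine arrays, as for 11.3% of all probe sets.

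Pcsk1, the convertase that makes the first cuts in many precursors, had the largest difference of the members. Its probe set read 7.31 and 7.27 in fluoxetine mice, against 6.93 and 7.03 in untreated mice. Both fluoxetine arrays lay above both untreated arrays, and the gap of 0.24 between the nearest arrays of the groups was wider than the spread within either group. The mean was 7.29 ± 0.02 in fluoxetine mice and 6.98 ± 0.07 in untreated mice (SD, n = 2 each), 1.24-fold higher with fluoxetine (log2 difference 0.31, SE 0.10, 95% interval 0.07 to 0.54). The limma fit gave an unadjusted p of 0.0172 and an adjusted p of 0.429, so that Pcsk1 did not pass, and 90.5% of all probe sets had a smaller absolute difference. The reading lay at percentile 50.2 of the means of all probe sets, where background adds more to the signal than at high levels, so that the fold can be understated or overstated by the background correction. The difference was 0.26 to 0.35 with an array left out and was positive under each alternative tried. The unadjusted p was 0.0949 without fluoxetine replicate 1, 0.0685 without fluoxetine replicate 2, 0.0579 without untreated replicate 1 and 0.0213 without untreated replicate 2. Without fluoxetine replicate 1, the array with the high Ttr reading, the difference was 0.29, and without untreated replicate 2, the array with the high striatal markers, it was 0.35. The part of the poly-A control shift in this difference was not tested.

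Cpe, the carboxypeptidase that trims basic residues from cut peptides and also serves as a sorting receptor for granule cargo, was read by 2 probe sets that gave different precision. The first read 14.44 and 14.45 in fluoxetine mice, against 14.38 and 14.37 in untreated mice. These groups did not overlap, and the difference was small (0.07, SE 0.03, 95% interval −0.01 to 0.14, adjusted p = 0.581 in the limma fit, n = 2 and 2). It stayed between 0.06 and 0.07 with any array left out, and was 0.04 with the arrays quantile-normalized again and 0.10 with array medians subtracted. This probe set had a mean above 99.98% of all probe sets, close to the top of the scale, where a spot can be near saturation and differences can be understated. The second, whose identifier has the suffix x, marking probes that may also match other transcripts, read 6.98 and 6.55 in fluoxetine mice, against 6.69 and 6.57 in untreated mice. Its groups overlapped, and its difference of 0.13 (SE 0.16, adjusted p = 0.833) was −0.08 without fluoxetine replicate 1.

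The helper proteins of the convertases gave small differences. Scg5, also called 7B2, a chaperone that Pcsk2 needs to become active, read 12.50 and 12.43 in fluoxetine mice, against 12.42 and 12.42 in untreated mice. The groups did not overlap but came within 0.0086 of each other, and fluoxetine replicate 1 stood above the other arrays. The difference was 0.04 (SE 0.04, 95% interval −0.06 to 0.15, adjusted p = 0.792 in the limma fit), and it was 0.0100 without fluoxetine replicate 1 and 0.08 without fluoxetine replicate 2. Pcsk1n, or proSAAS, a granin-like precursor whose product inhibits Pcsk1, read 12.50 and 12.60 in fluoxetine mice, against 12.56 and 12.58 in untreated mice. Both untreated arrays lay between the fluoxetine arrays, and the difference of −0.02 (SE 0.05, 95% interval −0.13 to 0.09) was 0.01 after subtracting array medians.

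Among the granins, Chga and Chgb, the chromogranins that build the core of the vesicle, did not differ beyond the spread between arrays. Chga read 10.13 and 10.16 in fluoxetine mice, against 9.98 and 10.25 in untreated mice. The untreated arrays lay on either side of the fluoxetine arrays, with an SD of 0.02 in fluoxetine mice and 0.19 in untreated mice. The difference was 0.03 (SE 0.09, 95% interval −0.17 to 0.24, adjusted p = 0.942 in the limma fit). It depended on which untreated array was kept: it was 0.17 without untreated replicate 2, where the unadjusted p was 0.0430 and the adjusted p 0.503, and −0.10 without untreated replicate 1. Chgb read 13.15 and 13.11 in fluoxetine mice, against 13.09 and 13.17 in untreated mice. These arrays were arranged in the same way, and the difference of 0.0048 (SE 0.04, 95% interval −0.10 to 0.11) was the smallest of the members. The upper end of that interval is a 1.08-fold higher level with fluoxetine and the lower end a 1.07-fold higher level in untreated mice.

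Scg2, the precursor of secretoneurin, was the only granin with a lower mean in fluoxetine mice in the fit of all 4 arrays. Among the other members only the helper protein Pcsk1n had a lower mean. Scg2 read 12.04 and 12.23 in fluoxetine mice, against 12.08 and 12.31 in untreated mice. The arrays of the groups alternated, so that the spread within each group exceeded the difference of −0.06 (SE 0.09, 95% interval −0.26 to 0.14, adjusted p = 0.868 in the limma fit). The difference was 0.05 without untreated replicate 2, 0.03 without fluoxetine replicate 1, −0.15 without fluoxetine replicate 2 and −0.17 without untreated replicate 1. Scg3, which binds Chga and cholesterol-rich vesicle membrane, read 12.71 and 12.74 in fluoxetine mice, against 12.70 and 12.70 in untreated mice. The groups did not overlap, by a margin of 0.0043, and the difference was 0.02 (SE 0.04, 95% interval −0.07 to 0.12, adjusted p = 0.895). It was 0.04 without fluoxetine replicate 1, 0.0065 without fluoxetine replicate 2 and 0.06 after subtracting array medians. Vgf, a precursor of several neuronal peptides that is induced by neurotrophins, read 11.02 and 11.06 in fluoxetine mice, against 10.96 and 11.07 in untreated mice. The untreated arrays again lay on either side, and the difference of 0.02 (SE 0.06, 95% interval −0.11 to 0.16, adjusted p = 0.932) was −0.01 after another quantile normalization and −0.03 without untreated replicate 1.

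**Figure D3:**
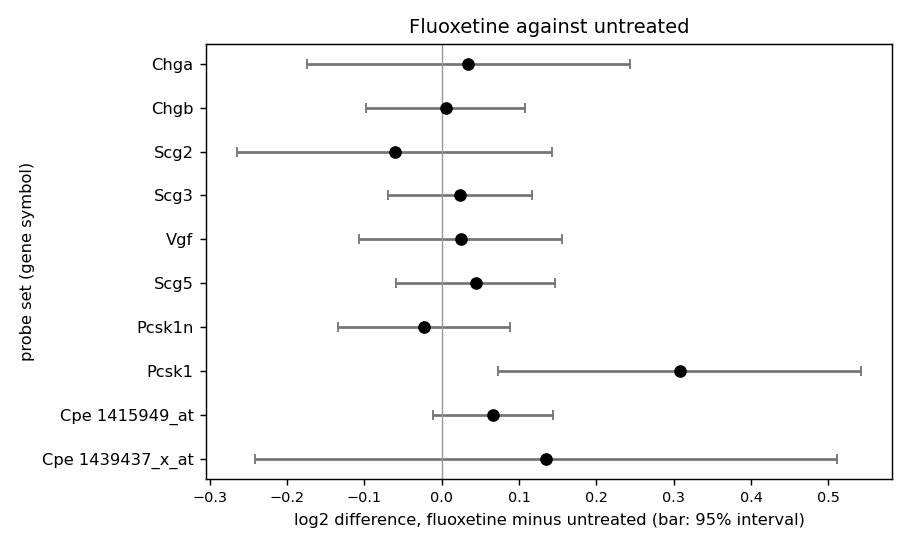
Log2 difference, fluoxetine minus untreated, of each member probe set (points) with its 95% interval from the limma fit (bars), 2 arrays against 2. The interval of Pcsk1 runs from 0.07 to 0.54 before any correction for 34945 probe sets, and those of the other probe sets contain 0.

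Of the 10 member probe sets 4, those of Chga, Chgb, Scg2 and Vgf, read highest in untreated replicate 2, against 30.8% of all probe sets. That array also had the highest striatal markers (9.77), and the part of striatal tissue in these readings was not tested. The other member probe sets, that of the granin Scg3 among them, read highest on a fluoxetine array, 3 on each. Of the genes found with the full cyclic AMP response element, where Vgf and Cpe were not searched, Pcsk1 was read with groups 0.24 apart. Chgb was read with the fluoxetine arrays between the untreated ones and Scg2 with alternating arrays. None of these genes passed the adjustment, and a relation of the element to their readings was not tested. Among the 17471 probe sets above the median level that did not belong to Vgf, those whose readings over the 4 arrays were most like Vgf belonged to Ddost, Nrp2 and Nfia, with Pearson correlations of 0.9997, 0.9997 and 0.9996. Of these probe sets 110, or 0.630%, had a correlation above 0.99, and with only 4 arrays this is a description of these readings.

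**Figure D4:**
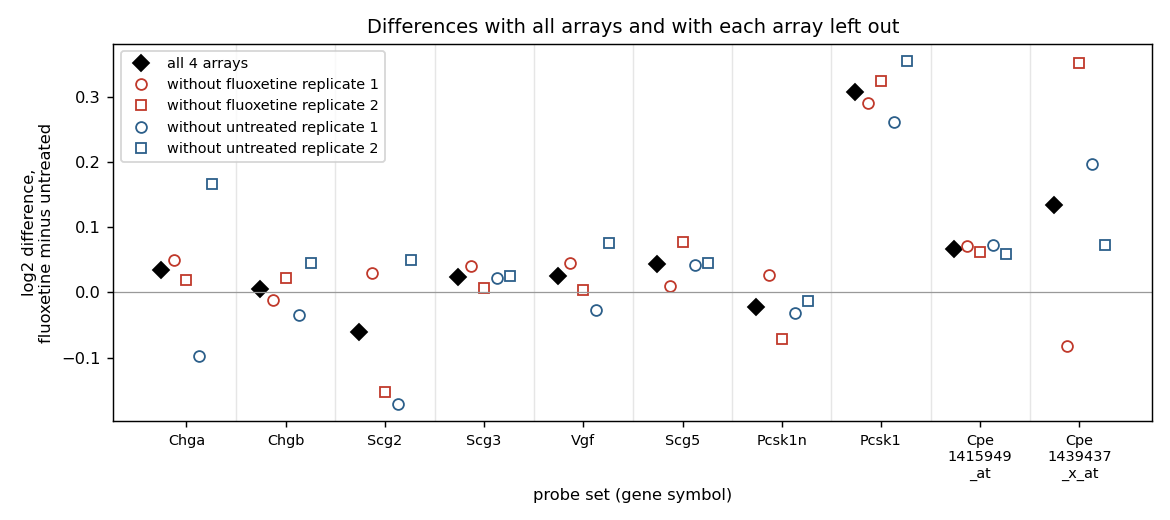
Log2 difference, fluoxetine minus untreated, of each member probe set with all 4 arrays (black) and with each array left out in turn (open symbols, red where a fluoxetine array and blue where an untreated array is left out). Pcsk1 stays between 0.26 and 0.35 and the first Cpe probe set between 0.06 and 0.07, while Chga runs from −0.10 to 0.17 and Scg2 from −0.17 to 0.05.

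The other genes of the pathway were described from lists of enzymes, vesicle machinery and cargo. Of 32 probe sets for 15 other processing enzymes, 3 stood higher with fluoxetine and 2 lower at an unadjusted p below 0.05, 27 did not pass, and 0 passed after adjustment over all probe sets. The share called, 15.6%, stood beside 9.45% of all probe sets (6.4% higher and 3.04% lower). The median difference was 0.01. Pam, which amidates peptide ends, differed by 0.01 (SE 0.07), and Furin, the convertase of the constitutive pathway, by 0.13 (SE 0.10). Cpd, a carboxypeptidase of the trans-Golgi network, was higher in 2 of its 7 probe sets (0.43, SE 0.15, and 0.29, SE 0.09), but the 7 ran from −0.22 to 0.43 and the brightest differed by 0.01. Mbtps1, the Golgi protease that cleaves membrane-bound transcription factors, had 1 probe set higher by 0.41 and 1 with a difference of −0.36. A probe set of Qpctl, the Golgi enzyme that cyclises N-terminal glutamine, had a difference of −0.24, while the 3 for this gene ran from −0.24 to 0.16. With 1 probe set per gene, the one of highest mean, 0 of these enzymes had an unadjusted p below 0.05.

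Dense-core vesicle machinery gave 8 higher and 0 lower probe sets of 58, for 26 of 27 listed genes, at an unadjusted p below 0.05. The other 50 did not pass, 0 passed after adjustment, and the median difference was 0.02. The share called, 13.8%, stood beside 9.45% of all probe sets and 11.7% of those above the median level. Higher ones alone were 6.4% of all probe sets and 1754 of the 17472 above the median level. Some probe sets of cell type markers passed the same threshold: 5 of 16 of the general neuron list were higher and 1 lower. In the astrocyte list 10 of 25 were higher and 0 lower. In the oligodendrocyte list 2 of 23 were higher and 4 lower, and in the microglia list 1 of 9 was higher and 1 lower. With each gene read by its probe set of highest mean, the median difference was 0.02 for the neuron list and 0.05 for the astrocyte list. The part of cell types in the vesicle and activity counts was not tested. The 8 belonged to 6 genes, with 3 from Rab2a alone. Kif1a, the kinesin that carries vesicles along axons, read 10.10 and 10.16 in fluoxetine mice, against 9.87 and 9.89 in untreated mice (difference 0.25, SE 0.06, unadjusted p = 0.00335, adjusted p = 0.357 in the limma fit). Syt4, a synaptotagmin of dense-core vesicles, read 10.97 and 10.59 in fluoxetine mice, against 10.37 and 10.24 in untreated mice (0.48, SE 0.12). In both genes the fluoxetine arrays lay above the untreated arrays, but the other probe set differed by 0.01 for Kif1a and by 0.05 for Syt4. Probe sets of the calcium sensor Syt7 (0.20), of the exocytosis GTPase Rab27b (0.43) and of the GTPase Rab2a (0.20), known from worm neurons for vesicle maturation, were also higher, while the brightest probe sets of these genes differed by 0.01, 0.03 and 0.06. The count of 8 became 2 without fluoxetine replicate 1 and 2 with 1 probe set per gene. Cadps, which primes vesicles for release, differed by 0.05 (SE 0.05) and its relative Cadps2 by −0.10 (SE 0.05). The vesicle membrane proteins Ptprn and Ptprn2 differed by −0.08 (SE 0.05) and, over 2 probe sets, by 0.03 and 0.10, and the sorting receptor Sort1 by −0.03 to 0.05 over 3.

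Cargo of the same vesicles was read by 24 probe sets for 20 genes, with a median difference of −0.09. At an unadjusted p below 0.05, 1 was higher and 1 lower, and 22 did not pass, so that the share called, 8.33%, lay near the 9.45% of all probe sets. Bdnf, the neurotrophin released from these vesicles, read 9.61 and 9.50 in fluoxetine mice, against 9.23 and 9.18 in untreated mice, with a difference of 0.35 (SE 0.07, adjusted p = 0.331), and its other probe set differed by 0.07. Nts, the neurotensin precursor, had a difference of −0.55 (SE 0.16) at a dim level of 4.36 and 4.39 in fluoxetine mice, against 4.82 and 5.02 in untreated mice. Penk, which belongs to the striatal marker list as well, read 10.98 and 11.39 in fluoxetine mice, against 11.12 and 12.31 in untreated mice. Tac1, on the same list, read 10.66 and 10.86 in fluoxetine mice, against 10.71 and 11.50 in untreated mice. The highest array for both was untreated replicate 2, and the groups overlapped. Of 16 probe sets for 10 activity-regulated genes, a list chosen with earlier results of these data known, at an unadjusted p below 0.05 there were 4 higher and 1 lower, a share of 31.2% beside the 9.45% of all probe sets and 37.5% of the general neuron list. Besides Bdnf, these were the immediate early gene Egr1 (0.20), the cyclic AMP responsive gene Crem (0.33) and the synaptic pentraxin Nptx2. The 4 probe sets of Crem ran from −0.38 to 0.33, with 0.18 in the one of highest mean. The 2 of Nptx2 went opposite ways (0.33 and −0.21). The other 11 of the list did not pass. Genes without a probe set past the threshold were Arc (0.12), Nr4a1 (0.12), Fos (0.06), Dusp1 (0.03), Inhba (0.0030 and 0.03) and Npas4 (−0.14).

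**Figure D5:**
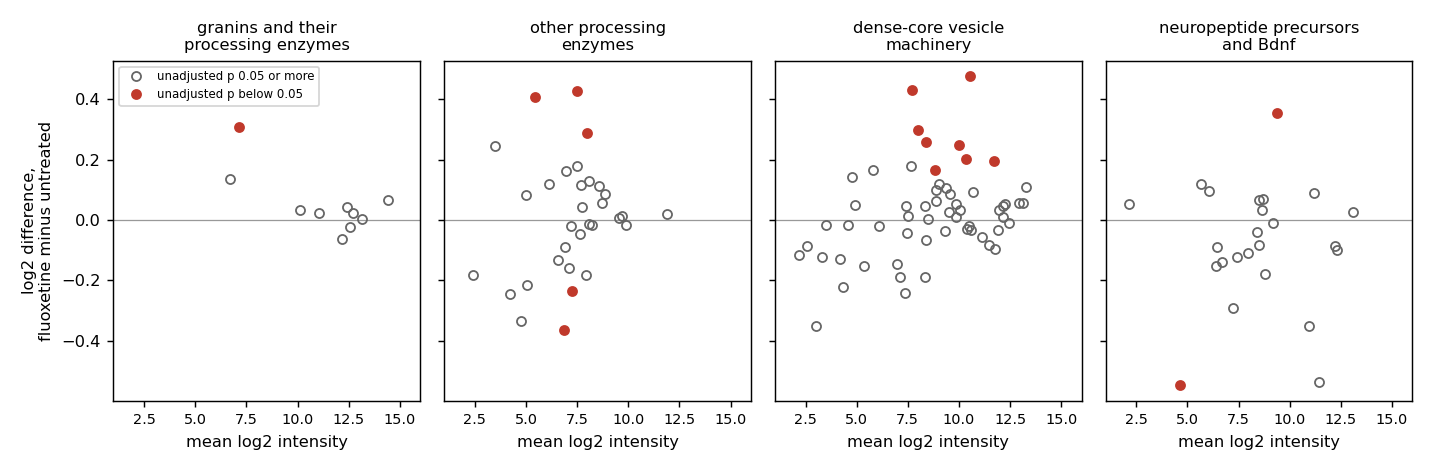
Log2 difference, fluoxetine minus untreated (y axis), against mean log2 intensity over the 4 arrays (x axis) for each probe set of the members and of 3 lists of related genes; red points have an unadjusted p below 0.05 and 0 of them passed the adjustment over all probe sets. Red points number 1 of 10, 5 of 32, 8 of 58 and 2 of 24.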

How the data were processed

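Values were log2 intensities per probe set, deposited by the authors as 1 table of 45101 probe sets on 4 arrays; RMA, affy and limma are named without versions, per the submitters' processing notes, and base 2 was inferred from the range of the values. The background correction and any genome build are not given in the sources used here. Array medians were 6.44 and 6.47 with fluoxetine and 6.50 and 6.48 without. Probe sets with 1 symbol in the platform annotation (34945) were tested; 932 with several, 9160 unnamed and 64 controls were not. Fluoxetine was compared with untreated in limma 3.58.1 (R 4.3.3; lmFit, eBayes with an intensity trend, 2 residual and 5.11 prior degrees of freedom), two-sided, adjusted by Benjamini-Hochberg over all 34945, with no pairing and no filter on low values. SE and intervals are limma's moderated ones. The number of arrays limits the precision.

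Members and lists were chosen with earlier results of these data known. Named genes were all member probe sets, up to 5 probe sets per list at an unadjusted p below 0.05 without overlap of groups, and a fixed set of 8 genes; Penk, Tac1 and Homer1 were added after their values were seen. Alternatives were other normalizations, no trend, a level filter, 1 probe set per gene and each array left out. Protein sequence was not used here. On simulated data for this comparison (34945 probe sets, 10 draws), the fit called 62.6% of 1.5-fold and 96.2% of 2-fold changes at an adjusted p below 0.05. The simulated noise was independent between probe sets, without differences shared across an array. Of its unchanged probe sets 4.96% had an unadjusted p below 0.05 in the limma fit, against 9.45% of all probe sets in the data. The simulated shares therefore need not hold for these arrays.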

Additional observations from a re-analysis of the deposited data

How the results depend on the processing

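No paired analysis was possible because the labels give no replicate numbers that pair arrays between the groups. Of 88 differences of member probe sets under the alternatives, 71 kept their direction and their side of an unadjusted p of 0.05, 12 changed sign, 3 (Pcsk1) lost and 2 (Chga, Cpe) gained an unadjusted p below 0.05, and 0 had an adjusted p below 0.05. After another quantile normalization the differences were −0.015 for Vgf, −0.0030 for Chga and −0.0087 for Chgb, and after subtracting array medians 0.014 for Pcsk1n. With each array left out in turn they ran from −0.028 to 0.076 for Vgf, −0.17 to 0.049 for Scg2, −0.10 to 0.17 for Chga, −0.035 to 0.045 for Chgb, −0.083 to 0.35 for the second Cpe probe set, −0.071 to 0.026 for Pcsk1n, 0.0100 to 0.078 for Scg5 and 0.0065 to 0.041 for Scg3. All of these lay within the 95% intervals of the fit of all arrays. Those intervals are built in part from the spread of the same arrays, so that this says little about stability. The cause of the sign changes was not tested.

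With an array left out, the member probe sets higher at an unadjusted p below 0.05 numbered 0 to 2, all probe sets 707 to 2326 higher and 337 to 1594 lower, and those past the adjustment 0 to 1. The same ranges were 0 to 4 for other processing enzymes, 2 to 8 for vesicle machinery and 2 to 6 for cargo. Among probe sets above the median level alone, 2 members (Pcsk1 and Cpe), 3 of the other enzymes, 1 cargo probe set and 301 lower probe sets in all had an unadjusted p below 0.05, with fewer probe sets tested. With 1 probe set per gene, 628 were higher, 638 lower and 0 past the adjustment, with 0 of the other enzymes and 2 of the vesicle machinery. Without the intensity trend 4 vesicle probe sets were called and 0 probe sets passed the adjustment, and after subtracting array medians 705 probe sets were lower. The higher share of all probe sets called was 67.8%, and 59.4% after another quantile normalization, 79.6% after subtracting array medians and 50.3% without the trend. Protein features planned for the members could not be computed here.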
